A study of Mus musculus with 10 samples.

Results

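The 10 genes described here encode amino acid carriers of the plasma membrane and a subunit that brings several of them there. They are Slc7a5, Slc3a2, Slc7a11, Slc7a1, Slc7a3, Slc7a10, Slc1a4, Slc1a5, Slc38a2 and Slc6a9. They were picked by gene symbol from a table of 15075 genes measured by RNA-seq in mouse interscapular brown adipose tissue (iBAT), and all 10 have a row in it. Of these, 8 passed the filter on low values, which kept the 11244 genes whose group mean reached 10 normalized reads per kb of exon in Control or AdCKO. The remaining members, Slc7a3 and Slc1a4, lay below it in both groups.

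The iBAT came from 10 C57BL/6 mice aged 20 weeks and housed at room temperature, 5 in each group, and each mouse gave its own library. Both groups are homozygous for a floxed allele of Crls1, the gene of cardiolipin synthase. AdCKO mice also carry a Cre transgene driven by the adiponectin (Adipoq) promoter, which is active in adipocytes and removes exon 4, whereas Control mice, called wild type in the labels, have no Cre. Cells of the tissue in which this promoter is silent keep an intact gene.

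Cells take up amino acids through carriers that differ in what they carry and in what drives them. SLC3A2 (4F2hc, CD98) is a glycoprotein that carries no amino acid itself but pairs by a disulfide bond with light chains of the SLC7 family and brings them to the cell surface. Among these light chains SLC7A5 (LAT1) exchanges large neutral amino acids such as leucine, SLC7A11 (xCT) imports cystine in exchange for glutamate, and SLC7A10 (Asc-1) carries small neutral amino acids and is known as a surface marker of white adipocytes. SLC7A1 and SLC7A3 carry arginine and lysine without a heavy chain, SLC1A4 and SLC1A5 exchange neutral amino acids such as serine and glutamine, SLC38A2 concentrates small neutral amino acids with sodium, and SLC6A9 takes up glycine. Several of these genes are known targets of ATF4, the transcription factor of the amino acid and integrated stress responses.

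Crls1 itself lay between 813 and 1291 normalized reads per kb in Control and between 193 and 249 in AdCKO. Summed over genes, normalized reads came to 7615403 to 8171138 for Control libraries and 5419800 to 5843024 for AdCKO libraries, and the depth before normalization is unknown. No value of the table was 0, and of the 5682 genes with under 50 normalized reads in Control, 88.5% varied less between the Control libraries than the counting of that many reads would give. Among the members with under 50 normalized reads in Control, Slc7a5, Slc6a9, Slc1a4 and Slc7a3 likewise varied less than counting would give. Slc7a1 did not, with a Control coefficient of variation of 28.5% against 15.8% from counting. In 3 AdCKO libraries, replicates 1, 2 and 4, the summed level of 10 skeletal muscle markers was 7245, 28270 and 10660, against 116 to 147 in Control and 161 and 147 in AdCKO replicates 3 and 5. In a bulk tissue, fewer cells of a type and less RNA per cell cannot be told apart.

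Of the 8 members tested, 7 rose in AdCKO, none fell and 1, Slc1a5, did not pass the test (limma on log2(value + 1), Benjamini-Hochberg adjusted p under 0.01). Among all 11244 tested genes 25.6% were called higher and 28.0% lower, 53.6% in all. The members' median log2 fold change was 1.52, against -0.01 over all tested genes. These are descriptions, because 3 of the 7, Slc7a5, Slc7a1 and Slc6a9, had Control means under 10 and entered the test only through their AdCKO level. Of the other 5 tested members, whose Control means were over 10, Slc3a2, Slc7a11, Slc7a10 and Slc38a2 rose and Slc1a5 was not called. In order of size the log2 fold changes of the 7 were 3.12 for Slc7a5, 2.58 for Slc7a1, 1.74 for Slc7a10, 1.70 for Slc6a9, 1.34 for Slc3a2, 1.28 for Slc7a11 and 1.01 for Slc38a2. This order depends on the pseudocount, which bears most on low genes. With a pseudocount of 10 in place of 1 the values were 1.86 for Slc7a5, 1.61 each for Slc7a10 and Slc7a1, 1.30 for Slc3a2, 1.05 for Slc6a9, 0.97 for Slc38a2 and 0.91 for Slc7a11, all still called. In each of the 7 the lowest AdCKO library exceeded the highest Control library, which was so for 24.5% of all tested genes; the reverse held for 26.4%, and either for 50.9%.

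**Figure D1:**
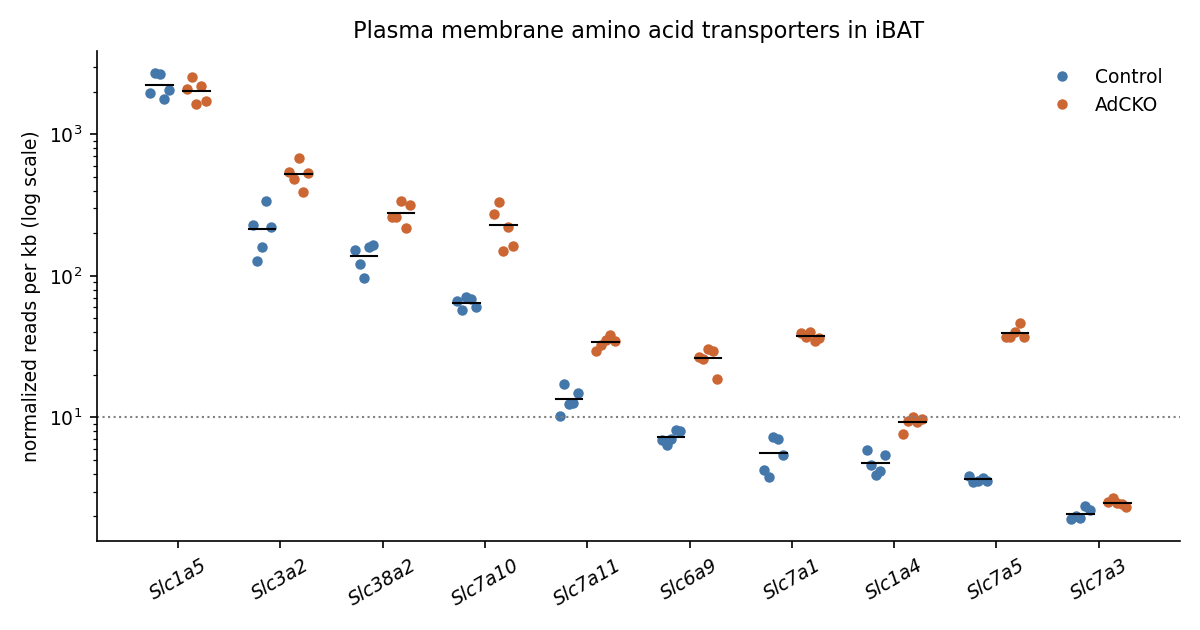
Level of each of the 10 transporter genes in every library, in normalized reads per kb on a log scale, with Control and AdCKO side by side. Points are libraries, bars are group means and the dotted line marks the filter at a mean of 10. All AdCKO libraries lie above all Control libraries for 8 of the 10 genes, beside 24.5% of all tested genes. Slc1a4, among these 8, was not tested, and Slc1a5 and Slc7a3 overlap.

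Slc7a5 (NM_011404, chr8:124405046-124431586 of mm9, minus strand) encodes the leucine carrier and had the steepest rise of the 10. Its levels in Control were 3.89, 3.51, 3.58, 3.72 and 3.58 normalized reads per kb, and in AdCKO 36.9, 37.2, 40.4, 46.5 and 37.0. The groups lay far apart, and no other member moved as far among all genes: the Control mean stood at the 19.7th percentile of all genes and the AdCKO mean at the 48.9th. The means were 3.66 ± 0.151 and 39.6 ± 4.11 (SD, n = 5), a ratio of 10.8, and the log2 fold change was 3.12 (SE 0.09, 95% interval 2.92 to 3.32, limma adjusted p = 4.38e-10). The Control values vary by 4.12% (coefficient of variation), whereas the counting of their 12.8 normalized reads would give 27.9%.

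Slc3a2 (NM_001161413, chr19:8781372-8797859, minus strand) encodes the heavy chain that SLC7A5, SLC7A11 and SLC7A10 share. It read 229, 128, 160.4, 337 and 222 normalized reads per kb in Control and 540.2, 484, 678, 389 and 533 in AdCKO. The groups did not overlap, but the highest Control library, replicate 4, and the lowest AdCKO library, also numbered 4, were close. The mean rose from 215 ± 80.2 to 525 ± 105 (SD, n = 5). The log2 fold change was 1.34 (SE 0.23, 95% interval 0.84 to 1.83, limma adjusted p = 0.000228), with the widest interval of the 8 tested members.

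Slc7a11 (NM_011990, chr3:50168858-50247535, minus strand), the cystine and glutamate exchanger, supplies the cysteine from which glutathione is made. Its levels were 10.3, 17.2, 12.5, 12.7 and 14.8 in Control and 29.7, 32.5, 35.1, 38.2 and 34.5 normalized reads per kb in AdCKO. All 5 AdCKO libraries exceeded the highest Control library. The means were 13.5 ± 2.6 and 33.97 ± 3.16 (SD, n = 5), and the log2 fold change was 1.28 (SE 0.12, 95% interval 1.01 to 1.55, limma adjusted p = 2.29e-06).

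Slc7a10 (NM_017394, chr7:35971404-35986130, plus strand), the small neutral amino acid carrier, had the largest SD relative to its mean within AdCKO. Control libraries read 66.2, 57.2, 71.3, 68.6 and 60.03 normalized reads per kb, and AdCKO libraries 274, 332, 149, 220.0 and 162. The 3 highest AdCKO values were those of replicates 1, 2 and 4, the libraries with high skeletal muscle markers, and the other two were still above every Control value. The mean rose from 64.7 ± 5.9 to 227 ± 76.8 (SD, n = 5), and the log2 fold change was 1.74 (SE 0.19, 95% interval 1.32 to 2.15, limma adjusted p = 6.77e-06). With AdCKO replicates 3 and 5 alone it was 1.26 (limma adjusted p = 1.39e-05), and the part of the muscle markers in the difference between AdCKO libraries was not tested. In its annotated exons Slc7a10 shares 374 bases with Lrp3 on the opposite strand, whose own log2 fold change was -0.21 and not called, and whether the counting used strand is not stated.

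**Figure D2:**
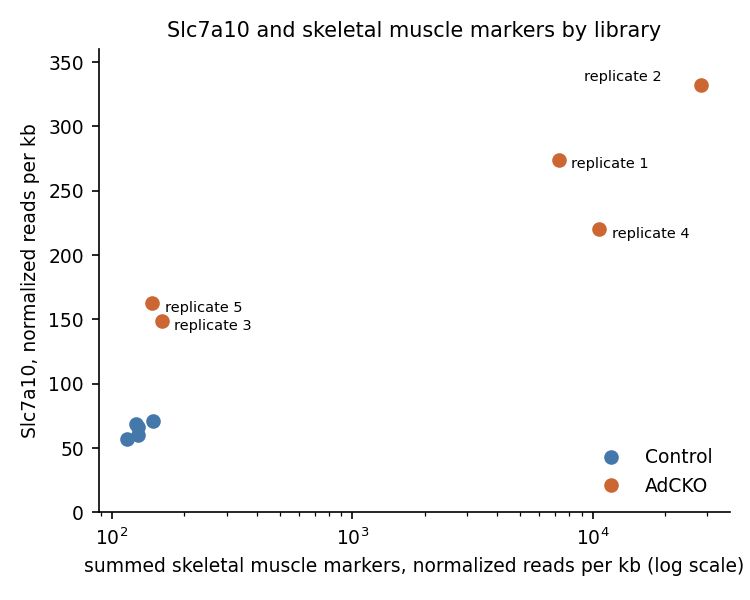
Slc7a10 in each library, in normalized reads per kb, against the summed level of 10 skeletal muscle markers on a log scale. The AdCKO libraries with marker sums of 7245, 10660 and 28270 have 274, 220.0 and 332 for Slc7a10, and the AdCKO libraries with sums of 161 and 147 have 149 and 162.

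Leaving out AdCKO replicates 1, 2 and 4 kept all 7 members called higher, beside 18.7% of all tested genes. Their log2 fold changes were then 3.09 for Slc7a5, 2.60 for Slc7a1, 1.58 for Slc6a9, 1.56 for Slc3a2, 1.32 for Slc7a11 and 1.26 each for Slc38a2 and Slc7a10. Slc7a10 was the member that moved most.

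Slc7a1 (NM_007513, chr5:149138986-149211480, minus strand) encodes the widely used arginine and lysine carrier. Control libraries read 4.27, 3.78, 7.33, 7.03 and 5.47 normalized reads per kb, and AdCKO libraries 39.3, 36.7, 39.9, 34.8 and 36.2. The AdCKO libraries lay within a narrow band, while the Control libraries spread over a wider relative range. The means were 5.58 ± 1.59 and 37.4 ± 2.16 (SD, n = 5), a ratio of 6.71, and the log2 fold change was 2.58 (SE 0.15, 95% interval 2.25 to 2.91, limma adjusted p = 5.26e-08). Slc7a3 (NM_001301840, chrX:98274549-98280744, minus strand), a relative for the same amino acids known mainly from the brain, was the least expressed member. It lay between 1.93 and 2.36 in Control and between 2.33 and 2.68 in AdCKO, so the groups overlapped. It did not enter the main test, and without the filter on low values its log2 fold change was 0.18 (limma adjusted p = 0.00602, and 0.0126 where a mean of 1 was required). Without the filter 24.7% of all genes were called higher.

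Slc1a5 (NM_009201, chr7:17366695-17383623, plus strand), the glutamine exchanger ASCT2, was by far the most abundant member and the only tested member without a call. Its Control levels were 1963, 2702, 2670, 1763 and 2056 normalized reads per kb, and its AdCKO levels 2100, 2513, 1630, 2182 and 1709. The groups overlapped, with 2 Control libraries above all AdCKO libraries. The means were 2231 ± 429 and 2027 ± 362 (SD, n = 5), and the log2 fold change was -0.14 (SE 0.15, 95% interval -0.46 to 0.19, limma adjusted p = 0.444). Its sign turned to 0.35 when every library was given the same total and to 0.38 after quantile normalization, again without a call. Less the median of all tested genes under each scaling, these values were -0.11 and 0.46, beside -0.12 under the authors' normalization. Slc1a5 made up 83.0% of the members' summed mean level in Control and 63.2% in AdCKO, and the summed level itself lay between 2366 and 3045 in Control and between 2861 and 3733 in AdCKO.

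Slc1a4 (NM_018861, chr11:20202183-20232716, minus strand), the related serine and alanine exchanger ASCT1, was low in both groups. It read 5.88, 4.58, 3.95, 4.19 and 5.43 normalized reads per kb in Control and 7.62, 9.37, 10.06, 9.32 and 9.81 in AdCKO. No AdCKO library reached down to the Control range. The means were 4.81 ± 0.819 and 9.23 ± 0.953 (SD, n = 5), both under the filter, and without that filter the log2 difference came to 0.82 (limma adjusted p = 4.78e-05, and 3.58e-05 where a mean of 1 was required).

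RefSeq promoter sequences (GRCm38.p6, from 250 bases before to 50 after the start) were found for 7 of the 10 members, in 10 windows. None was found for Slc7a5, Slc7a3 and Slc1a5, which were therefore not searched. Sequences are shown for Slc7a11 and Slc1a4 because these are the members among the 7 whose windows hold TGATGNAA. This is the core of the amino acid response element that ATF4 binds together with C/EBP proteins. Both strands were searched, and the motif was chosen after the data were seen. Capitals mark the match on either strand. The Slc7a11 sequence is chr3:50443614-50443763 on the minus strand and ends at the base before the start, with matches at -66 to -59 and, on the other strand, at -47 to -40. The Slc1a4 sequence is chr11:20332684-20332813 on the minus strand, from 100 bases before to 30 after the start, with a match on the other strand at -4 to 4.
Slc7a11: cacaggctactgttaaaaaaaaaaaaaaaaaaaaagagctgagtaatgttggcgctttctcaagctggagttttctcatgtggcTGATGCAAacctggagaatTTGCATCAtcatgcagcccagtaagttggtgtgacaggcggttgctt
Slc1a4: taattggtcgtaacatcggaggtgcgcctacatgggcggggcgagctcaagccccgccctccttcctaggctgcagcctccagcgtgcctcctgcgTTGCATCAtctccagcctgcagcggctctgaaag
Of 32851 mouse promoter windows of this length, 3.97% hold TGATGNAA. The antioxidant response element core TGACNNNGC, was found in windows of Slc7a1, Slc38a2 and Slc6a9, and 12.4% of all windows hold it. No window of a member held both motifs. A match describes letters and says nothing of binding in this tissue.

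Slc38a2 (NM_175121, chr15:96517823-96530129, minus strand), the sodium-driven carrier SNAT2, rose by a ratio of means of 2.01. Its Control levels were 151, 121, 97.1, 159 and 165 normalized reads per kb, and its AdCKO levels 261, 259, 337, 219 and 318. The ranges did not overlap. The means were 139 ± 28.7 and 279 ± 47.7 (SD, n = 5), and the log2 fold change was 1.01 (SE 0.16, 95% interval 0.67 to 1.35, limma adjusted p = 0.000107).

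Slc6a9 (NM_008135, chr4:117507863-117541910, plus strand), the glycine carrier GlyT1, read 6.89, 6.34, 7.04, 8.18 and 7.99 normalized reads per kb in Control. In AdCKO it read 26.6, 25.7, 30.4, 29.6 and 18.5. AdCKO replicate 5 was the lowest of its group and still above every Control library. The means were 7.29 ± 0.776 and 26.1 ± 4.69 (SD, n = 5), and the log2 fold change was 1.70 (SE 0.13, 95% interval 1.41 to 1.99, limma adjusted p = 4.42e-07). Its exons overlap those of genes on the opposite strand, by 1429 bases with Ccdc24, 511 with Gm17114 and 46 with B4galt2. B4galt2 rose with a log2 fold change of 0.63 (limma adjusted p = 0.000932), and Ccdc24 had means of 1.93 and 2.11.

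**Figure D3:**
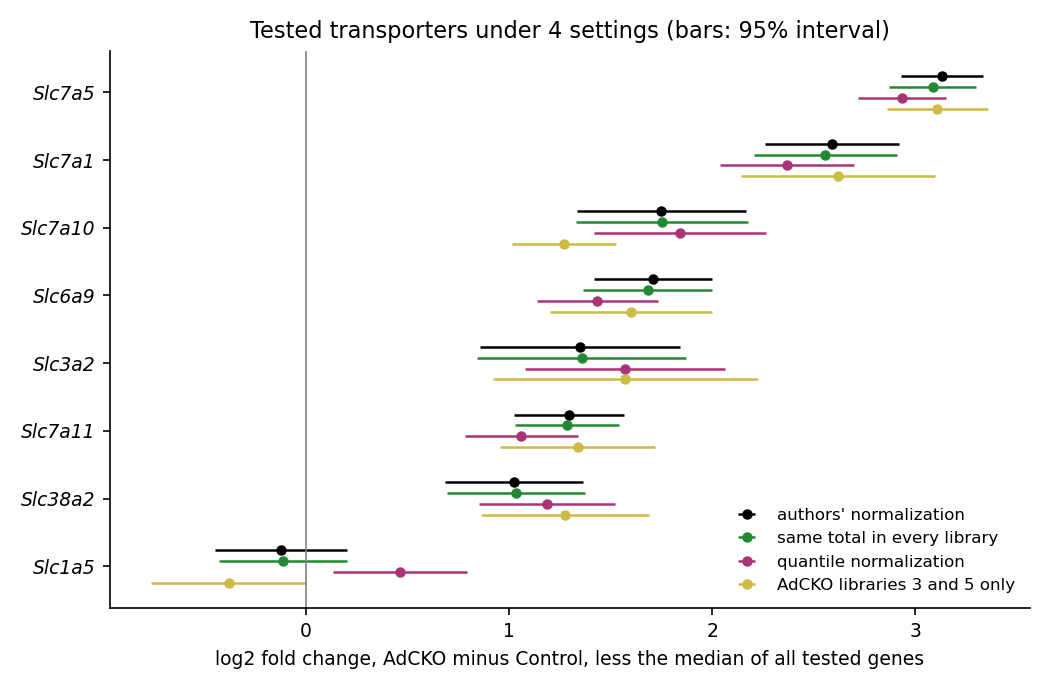
Log2 fold change, AdCKO minus Control, of the 8 tested transporter genes, less the median of all tested genes under the same setting, with 95% intervals as bars. Colours mark the authors' normalization, the same total in every library, quantile normalization and AdCKO libraries 3 and 5 only; the 7 called genes stay right of 0 under each, and Slc1a5 is at -0.12, -0.11, 0.46 and -0.38.

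The authors' normalization left the median log2 fold change of all tested genes at -0.01, with 47.7% of calls higher and 52.3% lower. Giving every library the same total put this median at 0.46, with 86.1% of calls higher and 13.9% lower, and quantile normalization put it at -0.08. All 7 members stayed called higher under both, beside 60.6% of all tested genes with the same total and 22.4% after quantile normalization. With the same total their log2 fold changes were 3.54 for Slc7a5, 3.02 for Slc7a1, 2.21 for Slc7a10, 2.14 for Slc6a9, 1.82 for Slc3a2, 1.74 for Slc7a11 and 1.49 for Slc38a2. All of these exceed the shift of all genes under that scaling. After quantile normalization they ran from 0.98 for Slc7a11 to 2.85 for Slc7a5, and Slc3a2, at 1.49, stood above Slc6a9, at 1.35.

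Per length of exon the members covered a wide range of levels. In Control the order of mean levels was Slc1a5, Slc3a2, Slc38a2, Slc7a10, Slc7a11, Slc6a9, Slc7a1, Slc1a4, Slc7a5 and Slc7a3. The neighbours Slc3a2 and Slc38a2, Slc6a9 and Slc7a1, and Slc7a1 and Slc1a4 overlapped between libraries. In AdCKO the first 4 were in the same order, followed by Slc7a5, Slc7a1, Slc7a11, Slc6a9, Slc1a4 and Slc7a3, so Slc7a5 went from the ninth to the fifth place. There the overlapping neighbours were Slc38a2 and Slc7a10, Slc7a5 and Slc7a1, Slc7a1 and Slc7a11, and Slc7a11 and Slc6a9. At the AdCKO level the ranges of Slc7a5, Slc7a1 and Slc7a11 thus overlapped. Within AdCKO libraries Slc7a5 lay above Slc7a1 in 4 of 5, Slc7a1 above Slc7a11 in 4 of 5, and Slc7a5 above Slc7a11 in each.

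A ratio of 2 genes within a library does not depend on how libraries are scaled to each other, and 5 such ratios were tested by exact permutation (two-sided, adjusted over the 5), for which the smallest possible p is 0.0079. Slc7a5 over its heavy chain Slc3a2 was 0.0170, 0.0274, 0.0223, 0.0110 and 0.0161 in Control and 0.0683, 0.0769, 0.0596, 0.120 and 0.0694 in AdCKO. All 5 AdCKO libraries were above all Control libraries (log2 difference 2.09, exact permutation p = 0.0079, adjusted p = 0.013). In these values the light chain thus rose more than the heavy chain. The Control mean of Slc7a5, 3.66 normalized reads per kb, lay below the filter on low values. Its Control values vary by 4.12%, against 27.9% from counting, so the size of this difference and its p-value are uncertain. With a pseudocount of 1 on both genes the log2 difference was 1.78. The members were chosen with earlier results of these data known. Slc7a11 over Slc3a2 had means of 0.0723 ± 0.0381 (Control) and 0.0673 ± 0.0184 (AdCKO, SD, n = 5), and the groups overlapped (log2 difference 0.01, exact permutation p = 0.98, adjusted p = 0.98). Slc7a10 over Slc3a2 was 0.331 ± 0.11 and 0.457 ± 0.192, and again overlapped (log2 difference 0.41, exact permutation p = 0.29, adjusted p = 0.36, n = 5). Among the 3 light chains the ratio to the heavy chain thus differed past the adjusted threshold of 0.05 for Slc7a5, and the light chains were not compared with each other.

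Slc1a5 over Slc1a4 fell from 480 ± 146 to 223 ± 52.5 (SD, n = 5), with all AdCKO libraries below all Control libraries (log2 difference -1.09, exact permutation p = 0.0079, adjusted p = 0.013). In the arginine carriers Slc7a3 over Slc7a1 fell from 0.399 ± 0.104 to 0.067 ± 0.0044 (log2 difference -2.54, exact permutation p = 0.0079, adjusted p = 0.013, n = 5). Both ratios include a gene below the filter on low values in Control and in AdCKO. The Control mean of Slc7a1, 5.58, was under 10 as well, and Slc7a1 entered the test only through its AdCKO level. Without a pseudocount the log2 difference was 2.79 for Slc7a1 and 0.26 for Slc7a3. The fall of Slc7a3 over Slc7a1 thus mostly repeats the rise of Slc7a1, and its p-value is no separate result.

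**Figure D4:**
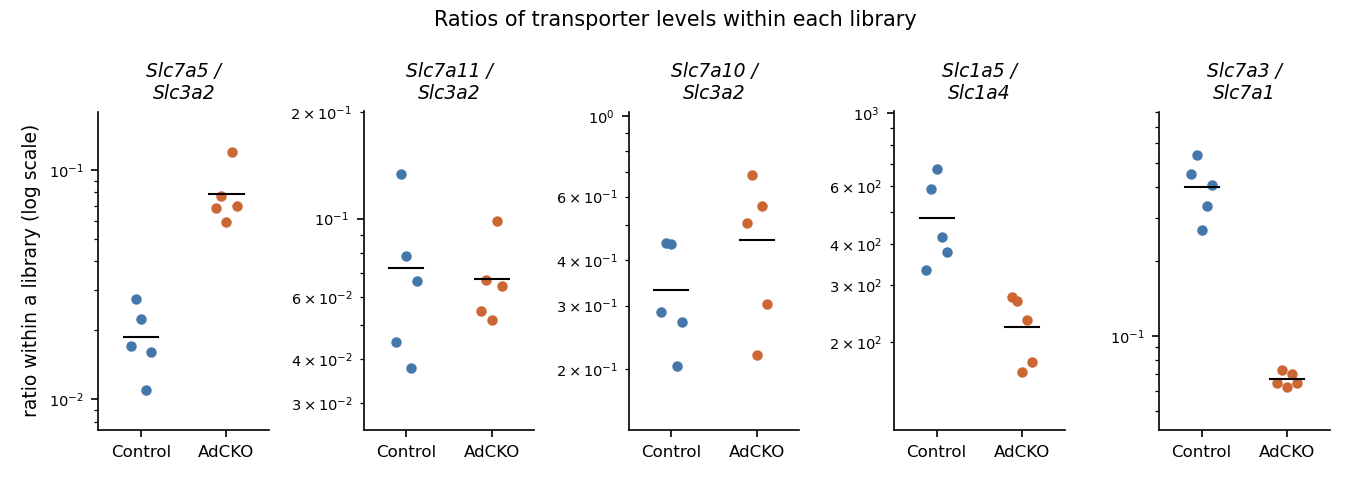
Ratio of 2 transporter genes within each library, on a log scale, for the 5 pairs compared. Points are libraries and bars are group means; Slc7a5 over Slc3a2 is higher in all 5 AdCKO libraries, Slc1a5 over Slc1a4 and Slc7a3 over Slc7a1 are lower in all 5, and the other two overlap.

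Of 31 other plasma membrane amino acid transporters listed, 20 were in the table and 11 were tested. Of these 4 were called higher, 3 lower and 4 neither, beside 25.6% higher and 28.0% lower among all tested genes. Their median log2 fold change was 0.22. These are descriptions, because Slc7a8, Slc6a13 and Slc38a3 had Control means of 8.41, 5.35 and 4.10. They entered the test only through their AdCKO level. Slc7a8 (LAT2), another light chain of SLC3A2, had means of 8.41 ± 1.34 in Control and 54.2 ± 5.82 in AdCKO (SD over 5 libraries) and rose by 2.56 on the log2 scale. Slc6a13, a carrier of GABA and taurine, Slc38a3, a glutamine carrier, and Slc7a7, a light chain for cationic amino acids, rose by 1.80, 1.80 and 0.54. In the other direction Slc36a2, a proton-driven carrier of glycine and proline, fell from 2677 ± 176 to 1232 ± 189, Slc1a3, a glutamate carrier, from 292 ± 26.2 to 120 ± 26.7, and Slc16a10, an aromatic amino acid carrier, from 80.3 ± 2.14 to 62.4 ± 6.44. When libraries were set to the same total the list had 7 higher and 2 lower and a median of 0.70, beside 0.46 over all tested genes. Of the 9 in the table that did not reach the filter, all AdCKO libraries lay above all Control libraries for 5 and below for 2. Among all tested genes these shares were 24.5% and 26.4%, and for genes under the filter they were not computed. In Control, Slc36a2 and Slc1a5 were the most abundant of all 30 transporters, and in AdCKO Slc1a5 lay above Slc36a2.

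**Figure D5:**
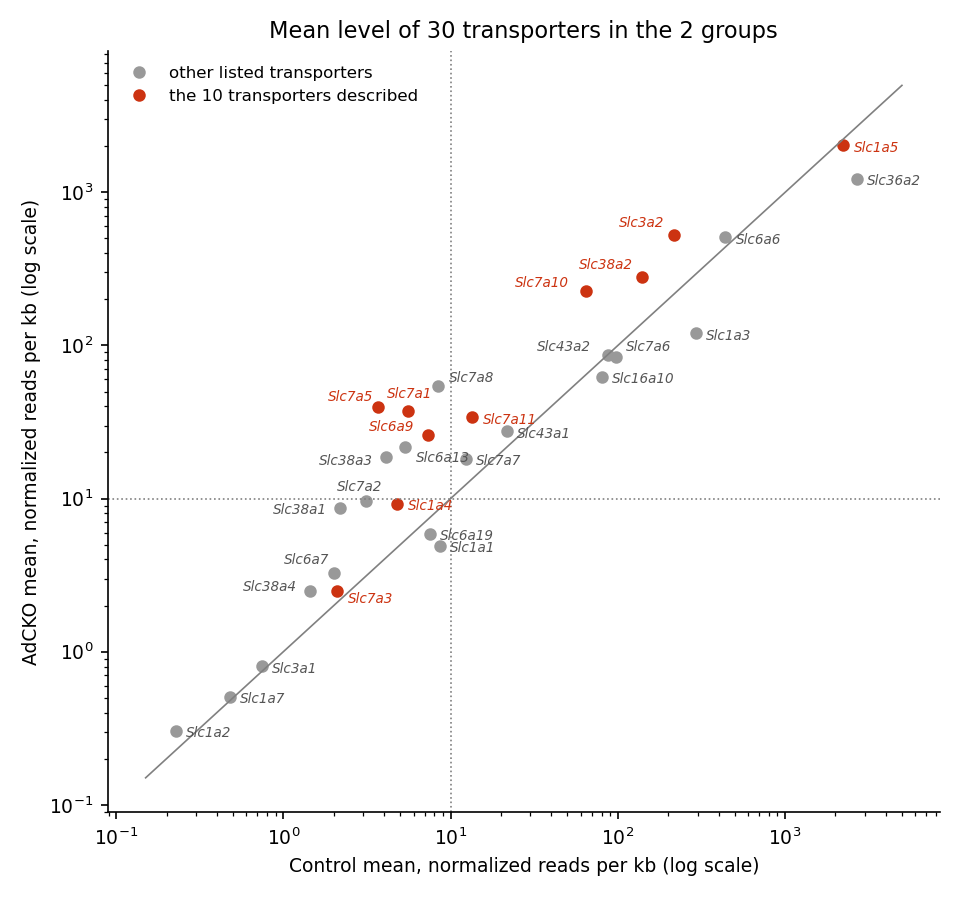
Mean level of the 10 transporter genes and of the 20 other listed transporters in the table, AdCKO against Control, in normalized reads per kb on log scales. The diagonal marks equal means and dotted lines mark a mean of 10; Slc7a5, Slc7a1 and Slc7a8 lie farthest above the diagonal, and Slc36a2 and Slc1a3 lie below it.

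Carriers of the lysosome return amino acids to the cytosol. Of 7 tested, 3 were higher and none lower, with a median log2 fold change of 0.30. The 3 were Slc15a3, a histidine and peptide carrier, Slc38a7 and Slc15a4. Slc15a3 had means of 10.7 and 60.9 normalized reads per kb and a log2 fold change of 2.38. Slc38a7 and Slc15a4 had 0.38 and 0.42. The shares over all tested genes were 25.6% higher and 28.0% lower. These counts moved under other scalings. At equal library totals all 7 were higher, with a median of 0.77 beside 0.46 over all tested genes. After quantile normalization 2 were higher, and Slc15a4, at 0.24, was not called.

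Genes of the amino acid response outside transport were listed because several members are known ATF4 targets. Of 22 tested, 14 were called higher, 3 lower and 5 neither, with a median log2 fold change of 1.10. Among all tested genes 25.6% were called higher and 28.0% lower. With the same total in every library 18 of the list were higher and 2 lower, and after quantile normalization 15 and 3. Aldh18a1, among the 14, had a Control mean of 7.69 and entered the test only through its AdCKO level. Psat1 (serine synthesis) rose by 3.80, Mthfd2 (mitochondrial folate metabolism) by 3.43, Gdf15 (a stress-induced secreted factor) by 5.45 and Trib3 (a pseudokinase) by 3.34 on the log2 scale, and Atf4 itself by 1.22. Vldlr, Eif4ebp1 and Psph fell, by 0.83, 0.86 and 0.62. With the same total in every library Psph was at -0.14 and not called. The asparagine synthetase gene Asns had a log2 fold change of 0.18 (limma adjusted p = 0.037) and Sesn2 of 0.05, neither called. Other scalings changed this. At equal library totals Asns was at 0.66 and Sesn2 at 0.53, both called higher, beside a median of 0.46 over all tested genes. After quantile normalization Asns was at 0.34 and called higher (limma adjusted p = 0.00149), and Sesn2 was at 0.05 and not called.

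Beside the cystine carrier Slc7a11, 12 genes of glutathione synthesis and of the antioxidant factor NRF2 were tested. Of these 6 were higher, 2 lower and 4 neither, with a median of 0.30. Among all tested genes 25.6% were called higher and 28.0% lower. With the same total in every library 10 of the list were higher and 0 lower, and after quantile normalization 6 and 1. Ggt5, among the 6, had a Control mean of 9.75 and entered the test only through its AdCKO level. Hmox1, which breaks down haem, rose by 2.24, Nqo1, a quinone reductase, by 0.76, Srxn1, which restores peroxiredoxins, by 0.71 and Txnrd1, a thioredoxin reductase, by 0.43. Keap1, which holds NRF2 back, fell by 0.63 and Gpx4, the lipid peroxide reductase that uses glutathione, by 0.82. These falls depended on the scaling. With the same total Keap1 was at -0.15 and Gpx4 at -0.34, neither called. After quantile normalization Keap1 was at -0.54 and called, and Gpx4 was at -0.18 and not called. The subunits of the first enzyme of glutathione synthesis, Gclc and Gclm, had log2 fold changes of 0.20 and -0.09 and were not called. Slc7a11 had 1.28, and Gss, of the same list, was called higher at 0.40 (limma adjusted p = 0.00536). With the same total Gclc and Gclm were at 0.68 and 0.39 and both called, beside 1.74 for Slc7a11. After quantile normalization neither Gclc nor Gclm was called.

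Leucine and arginine, carried by SLC7A5 and SLC7A1, are sensed upstream of the kinase complex mTORC1. The list of 24 tested genes of this sensing also holds Mtor itself and inhibitors such as Tsc2. Of the 24, 1 was higher, 11 were lower and 12 were not called. Their median log2 fold change was -0.26, which gives no direction for the pathway. Rragd, a Rag GTPase that acts at the lysosome, had means of 7.65 ± 2.17 in Control and 29.0 ± 9.49 in AdCKO (SD over 5 libraries) and rose by 1.78 on the log2 scale. Its Control mean was under 10, so it entered the test only through its AdCKO level. Mtor fell by 0.75, Tsc2, part of the inhibitory TSC complex, by 0.52, and Wdr24 and Depdc5, of the GATOR complexes, by 0.53 and 0.51. When libraries were set to the same total 10 were called higher and 1 lower, with a median of 0.21 beside 0.46 over all tested genes, and after quantile normalization 3 were higher and 12 lower, with a median of -0.24 beside -0.08. The list's median thus stayed below that of all tested genes under each scaling, while its counts followed the shift of all genes.

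Markers of other cell types also differed between the groups. Among all tested genes 25.6% were called higher and 28.0% lower. Of 10 macrophage markers 9 were called higher, and their summed level was 457 to 1253 in Control and 5837 to 7892 in AdCKO. Itgam and Fcgr1, among the 9, had Control means of 5.93 and 6.72 and entered the test only through their AdCKO level. Of 10 fibroblast and progenitor markers 8 were higher, with sums of 1316 to 1736 and 3899 to 6020. Of 10 brown adipocyte markers 6 were lower and none higher, with sums of 63330 to 86750 and 19870 to 41200, and of 10 adipocyte markers 6 were lower and 1 higher. The adipocyte markers depended on the scaling, with 2 lower and 2 higher when libraries were set to the same total and 1 lower and 1 higher after quantile normalization, and their median log2 fold change was -0.57 under the authors' normalization, -0.09 with the same total and 0.09 after quantile normalization. Of the brown adipocyte markers 5 were lower under either scaling, while 2 were higher with the same total and 1 after quantile normalization. Of the macrophage markers 9 were higher with the same total and 8 after quantile normalization. Under the authors' normalization the sums did not overlap between the groups for these 4 lists, and no value was 0. Of 10 endothelial markers 4 were higher, and of 6 tested lymphoid markers 2. Cd4, among the called lymphoid markers, had a Control mean of 7.89 and entered the test only through its AdCKO level. Of 5 tested nerve and Schwann cell markers 4 were higher and 1 lower, and of the 10 skeletal muscle markers 1 was higher. The part of these cell types in the rise of the 7 members was not tested.

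The genes most like each member over the 10 libraries were ranked by Pearson correlation of log2(value + 1), which is a description because the libraries fall into 2 groups that alone give high values for any gene that differs. For Slc7a5 these were Ero1l (0.9975), an oxidase of the endoplasmic reticulum, Lhfpl2 (0.9973) and Trem2 (0.9963), a receptor of macrophages. For Slc7a1 they were Gab2, Lmo2 and Cmip (0.9965 to 0.9931), and for Slc6a9 Cd200r1, Clec4a2 and C1qtnf6 (0.9931 to 0.992), of which the first and second encode receptors of myeloid cells. Slc7a10 was followed by Mup3 (0.9878), Slc25a12 (0.9866), a mitochondrial aspartate and glutamate carrier, and Gpt2 (0.9863), an alanine aminotransferase of mitochondria. Slc3a2 was closest to Sf1 (0.9841), Slc7a11 to 2510009E07Rik (0.9906) and Slc38a2 to Calu (0.9856). The highest value for Slc1a5 was lower, 0.9459 with Pstpip2.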

How the data were processed

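Poly(A) RNA from the iBAT of 10 mice was sequenced as 1 library per mouse. Per the paper's methods and the labels, STAR placed the reads on mm9, iRNA-seq counted those on exons, and DESeq2 normalized the result, which was divided by counted exon length. The values the authors deposited are thus a signal in normalized reads per kb for 15075 genes, and not counts. The transformation behind them is not named in the sources used here. The table also holds the authors' own log2 fold changes and adjusted p-values from DESeq2, which were not used.

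A pseudocount of 1 was added and log2 taken. Genes with a mean of at least 10 in Control or AdCKO (11244) entered the test, limma 3.58.1 under R 4.3.3 (intensity trend, two-sided, Benjamini-Hochberg over all tested genes, threshold 0.01). Fold changes on this scale understate the change of low genes. The test was checked on simulated data. Group means are the mean ± SD of 5 libraries, and p-values set the group difference against the spread between these mice. For low genes that spread is mostly narrower in these values than counting would give. Totals of normalized reads ran from 5419800 to 8171138. The depth before normalization is unknown, so no counting interval is given.

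Ratios within libraries were compared by exact permutation in Python 3.11.15. Named genes are the members, Crls1, up to 4 called genes with the smallest p of each list, called genes against a list's direction, and the closest genes by correlation. Atf4, Asns, Sesn2, Aldh18a1, Gclc, Gclm, Gss, Ggt5, Itgam, Fcgr1, Cd4 and the genes overlapping a member were named after their values were seen. The promoter motifs were also chosen after the data were seen. The members and lists were chosen with earlier results of these data known. Alternatives were pseudocounts of 0.1 and 10, looser filters, other scalings, no trend, the replicate block, a threshold of 0.05 and each library left out. AdCKO libraries 3 and 5 alone were added after seeing the data. Figures used matplotlib 3.10.9.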

Additional observations from a re-analysis of the deposited data

Results flagged for a closer look

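Among 50 groups of 5 libraries, 3 values lay far from the rest of their group by Dixon's criterion, which about 1 in 20 groups meet by chance, so about this many would be met by chance alone. The Slc7a5 over Slc3a2 ratio of AdCKO replicate 4 was 0.12, with the next highest at 0.0769 and the lowest at 0.0596. This is the AdCKO library with the highest Slc7a5 and the lowest Slc3a2. The summed level of lymphoid markers was 97.3 in Control replicate 3, with the next highest at 58.8, and 315 in AdCKO replicate 1, with the next highest at 117.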

How the results depend on the processing

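The 7 members called higher kept their call and direction under both pseudocounts, both looser filters, both other scalings, no trend, the replicate block, AdCKO libraries 3 and 5 only, a threshold of 0.05 and each of 10 left-out libraries. Between 7 and 9 members were called higher, 9 with no filter. With each library left out the log2 fold change ran from 3.06 to 3.14 for Slc7a5, 1.17 to 1.52 for Slc3a2 and 1.58 to 1.87 for Slc7a10. Sizes moved more than calls: a pseudocount of 10 gave 1.86 for Slc7a5, 1.61 for Slc7a1 and 1.05 for Slc6a9. Giving every library the same total put 6811 genes higher and 1098 lower, and the log2 fold change of Slc1a5 was 0.35, against 0.38 after quantile normalization. Of the other transporters 9 were higher and 5 lower with no filter, and 8 and 5 with a mean of at least 1, where more genes are tested. With the same total, 7 were higher. The Slc7a11 over Slc3a2 log2 difference was -0.052 with a pseudocount of 1 and ran from -0.19 to 0.27 with a library left out. Its direction is not determined. Same-numbered libraries did not deviate together (correlations of -0.27 to 0.10), so the numbers were not taken as pairs. With the replicate block 2592 genes were higher and 2838 lower. The ratio differences of 2.09, -1.09 and -2.54 then had an adjusted p of 0.104, since the smallest exact permutation p for 5 pairs is 0.0625. Low values, the unknown depth and the unnamed transformation limit Slc7a3, Slc1a4 and the Control level of Slc7a5.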
